A study of Mus musculus with 23 samples.

Results

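The collagens and stromal matrix genes measured here are the genes named COL, number, A, number in the deposited table, together with 15 genes of the connective tissue matrix and of the cells that make it (LUM, DCN, FBN1, FN1, SPARC, BGN, POSTN, PDGFRA, PDGFRB, THY1, PDPN, CLEC3B, SMOC1, C1S and LOX). The rule matched 59 names, 44 of them collagens, and kept a gene at 0.5 CPM or more (CPM are counts after scaling for depth) in at least 4 of 23 libraries. This left 42 genes, 27 collagens and 15 others, of 12322 gene profiles that passed the same filter and 15881 in all. Another 6 collagens were listed without values, COL4A3 was at 0 in every library, and 10 collagens lay below the filter. Just inside the filter were COL26A1 and COL8A1, at 0.5 CPM in 4 libraries, and just outside it was COL2A1, in 1 library. The table lists the mouse genes under human symbols, which are used here as given.

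The libraries came from IL6Myc transgenic mice, whose tumors are labelled malignant plasma cells, and from wild-type Balb/c mice. Untreated tumors were taken from mesenteric lymph node (MLN, 7 tumors) and spleen (7 tumors). Both sites were sampled in mice 1610, 1611, 1613, 1614, 1615 and 1616, only the MLN in mouse 1609 and only the spleen in mouse 1612, so the 14 tumors stand for 8 mice. The controls were splenic B cells of wild-type mice, 4 libraries of untreated cells (quiescent) and 5 of cells kept for 16 hours in 1 µg/ml LPS, a bacterial cell wall component that makes B cells divide (activated). All tissue samples, tumors included, went through bead-based negative selection for B cells before RNA extraction, a step that removes cells carrying markers of other lineages. Neither the promoters that drive the transgenes nor the strain of the IL6Myc mice is given in the labels. Whether each control library came from its own animal is not stated, and the spread behind p-values against controls may thus be technical. No normal lymph node was sampled. A difference of MLN tumors from controls or from spleen tumors thus cannot be told apart from a difference between the organs. In bulk RNA, fewer cells of a type and less RNA per cell cannot be told apart.

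Collagens are triple helices that fibroblasts and related stromal cells secrete and assemble outside the cell. Types I, III and V form fibrils, type VI forms beaded filaments next to them, and type IV forms the sheet of basement membranes. In lymph node and spleen, fibroblastic reticular cells wrap thin type III fibrils into conduits that carry fluid and along which lymphocytes move. Stromal cells of this kind carry PDPN and PDGFRA on their surface, and lumican and decorin bind to the fibrils they make.

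The 250 bases before the transcription start are shown for COL3A1, the fibril former with the highest single value and mean in MLN tumors, for COL1A2, a chain of type I collagen that tracked it, and for POSTN, whose pattern over the tumors was another one. Sequences and starts are those of RefSeq on GRCm38.p6, a build other than the GRCm39 named in the submitters' processing notes. Capitals mark the motifs searched on both strands: the CCAAT box, the GC box GGGCGG and the TATA box TATAAA. No matches overlapped in these windows.
Col3a1, chr1:45311288-45311537, plus strand: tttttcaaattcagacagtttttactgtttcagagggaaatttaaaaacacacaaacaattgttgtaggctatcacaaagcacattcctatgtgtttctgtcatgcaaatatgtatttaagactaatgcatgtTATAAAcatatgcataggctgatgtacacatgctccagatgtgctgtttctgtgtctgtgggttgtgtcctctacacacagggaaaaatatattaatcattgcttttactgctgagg
Col1a2, chr6:4505368-4505617, plus strand: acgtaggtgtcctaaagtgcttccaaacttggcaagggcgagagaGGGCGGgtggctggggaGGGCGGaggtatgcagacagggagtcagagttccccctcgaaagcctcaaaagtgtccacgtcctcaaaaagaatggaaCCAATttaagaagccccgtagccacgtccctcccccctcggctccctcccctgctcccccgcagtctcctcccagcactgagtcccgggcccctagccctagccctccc
Postn, chr3:54360857-54361106, plus strand: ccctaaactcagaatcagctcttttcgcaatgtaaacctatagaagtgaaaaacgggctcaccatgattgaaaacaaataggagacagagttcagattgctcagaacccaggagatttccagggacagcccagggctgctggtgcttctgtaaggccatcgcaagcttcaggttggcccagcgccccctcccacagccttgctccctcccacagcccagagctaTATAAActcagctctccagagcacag
In the Col3a1 window the only match was TATAAA, beginning 117 bases before the start. The Col1a2 window held CCAAT on the plus strand 109 bases before the start and GGGCGG at 205 and 188 bases, with no TATAAA. The Postn window held TATAAA 26 bases before the start, and the window of another Postn start in the table, chr3:54359017-54359266, had no match. Over the 28 members with an entry, 8 held CCAAT, 16 held GGGCGG and 4 held TATAAA. Over all 32851 promoters of the table the shares were 33.8%, 32.7% and 12.4%. These count each start singly, so they are not in the same unit as the counts of members. A match is a description of letters and not of binding.

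The library totals lay between 13328866 and 25045814 estimated counts. The 42 kept genes were a small fraction of them, 0.0239% to 0.0929% in MLN tumors (median 0.0361%) and 0.0109% to 0.0796% in spleen tumors (median 0.0221%). In quiescent cells the share was 0.00784% to 0.0171%, and in activated cells 0.0041% to 0.00573%. Tumor libraries differed in how far they resembled B cells. The summed level of 8 plasma cell markers was 847.5 to 1398 CPM in the spleen tumors of mice 1610, 1612 and 1615 and 1223 CPM in the MLN tumor of mouse 1611, below the 1906 to 2322 CPM of quiescent cells, while the other tumors had 3449 to 26780 CPM. The results between tumors are therefore also given without those 3 spleen tumors, and without each mouse. The setting without the 3 spleen tumors was added after the values were seen, and it keeps the MLN tumor of mouse 1611. COL3A1 and LUM, the genes that mark the stromal set, were both detected: COL3A1 in all 14 tumors and LUM in all 7 MLN tumors and 5 of 7 spleen tumors.

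**Figure D1:**
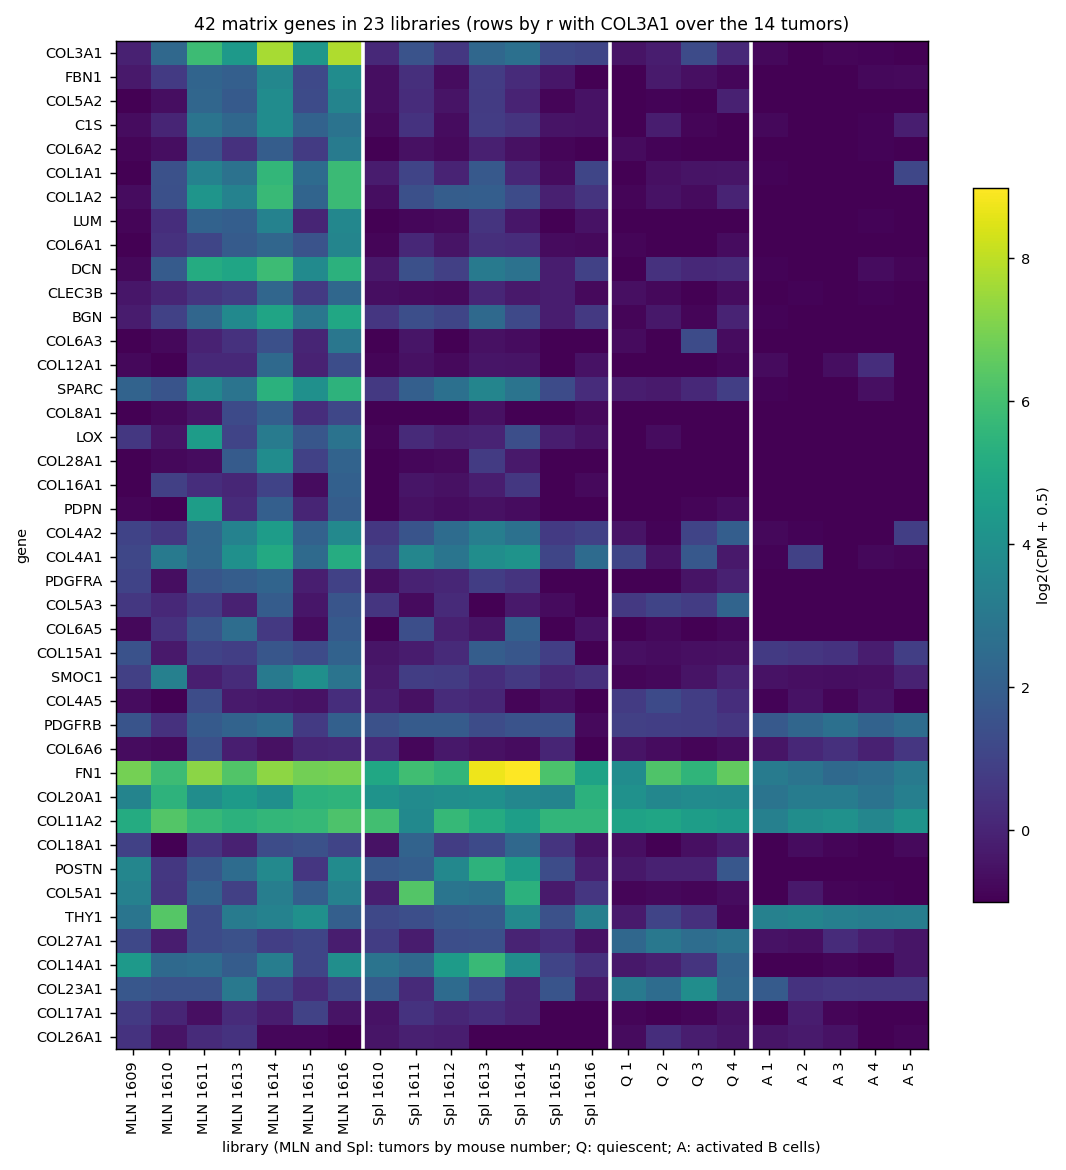
Level of each of the 42 genes (rows, ordered by their correlation with COL3A1 over the tumors) in each of the 23 libraries (columns), as log2(CPM + 0.5). The upper rows are brightest in the MLN tumors of mice 1614 and 1616 and dark in activated cells, COL11A2 and COL20A1 are bright in all columns, and POSTN, FN1 and COL14A1 are brightest in the spleen tumors of mice 1613 or 1614.

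The chains of types I and III and COL5A2 were highest in the MLN tumors of mice 1614 and 1616, and each was higher in the MLN than in the spleen tumor of all 6 mice with both. COL3A1, the single chain of type III collagen, had 0.438, 4.72, 56.6, 19.9, 205.2, 18.5 and 225.2 CPM in the MLN tumors of mice 1609, 1610, 1611, 1613, 1614, 1615 and 1616. In the spleen tumors it had 0.597 (1610), 2.42 (1611), 1.04 (1612), 4.55 (1613), 5.88 (1614), 1.81 (1615) and 1.6 (1616) CPM. The MLN tumors of mice 1614 and 1616 stood far above all others, and the MLN tumor of mouse 1609 lay below every spleen tumor, so the groups overlapped. Within mice, the MLN tumor was higher in 6 of 6 pairs, by 2.01 to 6.75 on the log2(CPM + 0.5) scale. The fitted log2 change of MLN over spleen tumors was 4.86 ± 1.1 (SE, 7 against 7 tumors), and it did not pass adjustment over all genes in edgeR (adjusted p = 0.889).

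The chains of type I collagen, the main fibril of skin, tendon and bone, had the same tumors at either end. COL1A1 ranged from 0 to 55.4 CPM in MLN tumors (median 6.38) and from 0.106 to 2.97 CPM in spleen tumors (median 0.575). COL1A2 ranged from 0.131 to 55.1 CPM in MLN tumors (median 10.4) and from 0.149 to 3.46 CPM in spleen tumors (median 1.95). For both chains the MLN tumors of mice 1614 and 1616 were highest and that of mouse 1609 lowest, at or under the lowest spleen tumor, and the pair differences ran from 0.99 to 5.52 for COL1A1 and from 1.46 to 5.31 for COL1A2. Type I fibrils hold more COL1A1 than COL1A2 chains, and per length of transcript the ratio of COL1A1 to COL1A2 was 0.514 to 1.1 in the 6 MLN tumors with COL1A1 counts. The ratio of COL3A1 to COL1A2 per length was 1.84 to 4.29 over the 7 MLN tumors, so COL3A1 mRNA exceeded that of this 1 type I chain in each. In mouse 1609 the ratio rests on 10 counts of COL3A1 and 3 of COL1A2. COL5A2, a type V chain that limits fibril width, ranged from 0 to 14.2 CPM in MLN tumors (median 3.02) and from 0.0532 to 1.15 CPM in spleen tumors (median 0.226).

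The other fibrillar collagens shared this pattern in part or not at all. COL5A1, the partner chain of COL5A2, was highest in spleen tumors, at 78.4 CPM in mouse 1611 and 42.3 CPM in mouse 1614, against 0.975 to 10.1 CPM in MLN tumors. Its pairs were divided, with the MLN tumor higher in 3 of 6. COL5A3 was low, at 0.264 to 3.22 CPM in MLN tumors, 0 to 0.945 CPM in spleen tumors and 1.09 to 4.12 CPM in quiescent cells. Among the tumors it was highest in the MLN tumors of mice 1614 and 1616, and the MLN tumor was higher in 5 of 6 pairs. COL11A2, a chain of cartilage fibrils, had 35 to 78.4 CPM in MLN tumors, 13 to 62.6 CPM in spleen tumors, 20.5 to 29.1 CPM in quiescent and 9.75 to 16.9 CPM in activated cells. It was higher in the MLN tumor in 6 of 6 pairs, with a fitted log2 change of 0.43 ± 0.29 (SE). Counts were assigned to it in each B cell library as well, as they were to COL20A1, a fibril-associated collagen, with 6.56 to 16.1 CPM over the 9 control libraries. Whether reads of neighbouring genes were counted under these names was not tested. COL27A1 was highest in quiescent cells, at 4.53 to 7.51 CPM, against 0.2 to 2.3 CPM over the tumors.

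Type VI collagen, the beaded filament that links cells to the fibrils, split into chains with and without the COL3A1 pattern. COL6A1 ranged from 0 to 11.3 CPM in MLN tumors (median 2.44) and from 0.0498 to 0.788 CPM in spleen tumors (median 0.226). COL6A2 ranged from 0.0438 to 8.4 CPM (median 1.19) and from 0 to 0.425 CPM (median 0.0905), and COL6A3 from 0 to 7.36 CPM (median 0.528) and from 0 to 0.236 CPM (median 0), in MLN and spleen tumors respectively. Each of these 3 chains, which form the common type VI molecule, was higher in the MLN tumor in 6 of 6 pairs, with the MLN tumor of mouse 1616 highest. COL6A5 was highest in the MLN tumor of mouse 1613 (5.38 CPM) and next in the spleen tumor of mouse 1614 (3.67 CPM), and COL6A6 had its highest tumor value, 2.18 CPM, in the MLN tumor of mouse 1611.

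Basement membrane collagen had smaller fitted changes between the tissues than the chains of types I and III. COL4A1 ranged from 1.67 to 35.5 CPM in MLN tumors (median 8.17) and from 1.49 to 17.3 CPM in spleen tumors (median 6.93), and COL4A2, its partner in the common type IV trimer, from 1.05 to 22.5 CPM (median 4.36) and from 1.05 to 9.22 CPM (median 2.54). The ranges overlapped, with the highest values in MLN tumors, and the MLN tumor was higher in 5 of 6 pairs for COL4A1 and in 6 of 6 for COL4A2. The fitted log2 changes were 0.8 ± 0.7 and 1.06 ± 0.7 (SE). Both genes lie head to head on mouse chromosome 8, with starts 21 bases apart in RefSeq, and their levels correlated at r = 0.84 over the 14 tumors. Endothelial cells are a known source of type IV collagen: 15 of 16 endothelial markers were above 0, with a summed level of 11.9 to 46.8 CPM in MLN tumors, 9.19 to 141.7 CPM in spleen tumors (highest in mouse 1613), 4.42 to 12.2 CPM in quiescent and 2.07 to 3.77 CPM in activated cells, and PECAM1 had no value. Their part in the type IV levels was not tested. COL15A1 and COL18A1, multiplexins of vessel basement membranes, reached 3.94 CPM in the MLN tumor of mouse 1616 and 4.65 CPM in the spleen tumor of mouse 1614.

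Among the remaining collagens, COL8A1, COL12A1, COL16A1 and COL28A1 were low but kept near the order of COL3A1 over the tumors (r of 0.8 to 0.89). The MLN tumor was higher in 6 of 6 pairs for COL8A1, COL16A1 and COL28A1 and in 5 of 6 for COL12A1. COL14A1, which binds to fibril surfaces, was highest in the spleen tumor of mouse 1613 at 54.1 CPM, and it ranged from 1.65 to 19.9 CPM in MLN tumors (median 5.34) and from 0.799 to 54.1 CPM in spleen tumors (median 6.67). COL12A1 and COL16A1, of the same class, reached 4.86 and 3.71 CPM at most, both in MLN tumors. COL8A1, a network collagen of vessel walls, was at 0 in 5 of 7 spleen tumors and in all 9 control libraries, and its highest value was 3.47 CPM in the MLN tumor of mouse 1614. COL28A1, a chain of peripheral nerve sheaths, had 13.95 CPM in that tumor, 4.01 CPM or less in the other tumors and 0 in all control libraries. COL23A1, a transmembrane collagen, was higher in quiescent cells (4.74 to 14.6 CPM) than in most tumors (0.3 to 7.62 CPM), and COL17A1 and COL26A1 stayed under 1.5 CPM in all tumors.

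The 3 small leucine-rich proteoglycans, which coat collagen fibrils and set their spacing, were among the most uneven genes. DCN had 0.0876, 3.15, 35.1, 29.1, 57.5, 13.2 and 42.2 CPM in the MLN tumors of mice 1609, 1610, 1611, 1613, 1614, 1615 and 1616. In spleen tumors it ranged from 0.298 to 8.13 CPM with a median of 1.4. The MLN tumors of mice 1611 and 1613 to 1616 lay above every spleen tumor, and those of mice 1609 and 1610 lay within or below their range. LUM ranged from 0.0438 to 11.8 CPM in MLN tumors (median 3.42) and from 0 to 0.91 CPM in spleen tumors (median 0.0905). It was at 0 in the 4 quiescent libraries and had 1 count in 1 of 5 activated libraries. BGN ranged from 0.35 to 30.5 CPM in MLN tumors (median 7.06) and from 0.372 to 4.79 CPM in spleen tumors (median 1.63). DCN and LUM neighbour each other on mouse chromosome 10 (r = 0.91 over the tumors).

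Among glycoproteins and matricellular proteins, FBN1 and CLEC3B followed COL3A1 while FN1 and POSTN did not. FBN1, the core of elastic microfibrils, ranged from 0.307 to 14.1 CPM in MLN tumors (median 3.53) and from 0 to 1.21 CPM in spleen tumors (median 0.266). SPARC, a collagen-binding protein, ranged from 2.55 to 43.5 CPM in MLN tumors (median 11.8) and from 0.699 to 11.3 CPM in spleen tumors (median 3.54). Both genes were highest in the MLN tumor of mouse 1616, and SPARC was lower in the MLN than in the spleen tumor of mouse 1613. SMOC1, a calcium-binding matrix protein, was highest in the MLN tumor of mouse 1615 at 15.2 CPM, and no spleen tumor exceeded 1.24 CPM. POSTN, a protein of remodelling matrix, was highest in the spleen tumors of mice 1613 (42.9 CPM) and 1614 (22.8 CPM), and its MLN tumors ranged from 0.99 to 13.8 CPM (median 5.32). POSTN was lower in the MLN tumor in 5 of 6 pairs, with mouse 1616 the exception. FN1, which links cells to collagen, was highest in the same spleen tumors, at 508.7 CPM in mouse 1614 and 424.8 CPM in mouse 1613, against 56.8 to 158.3 CPM in MLN tumors. Its median was nevertheless higher in MLN (120.7 CPM) than in spleen tumors (61.1 CPM), and the MLN tumor was higher in 4 of 6 pairs. The fitted log2 change was -0.55 ± 0.65 (SE). Macrophages are a known source of FN1, and 13 of 14 macrophage markers were above 0. The summed level of these markers was 507 to 3818 CPM in MLN tumors and 369 to 3400 CPM in spleen tumors. It was 112 to 275 CPM in quiescent and 131 to 181 CPM in activated cells. The spleen tumors of mice 1613 and 1614 had 3129 and 3400 CPM. The highest sum, 3818 CPM, was in the MLN tumor of mouse 1615, with FN1 at 116.9 CPM. The spleen tumors of mice 1611 and 1616 had sums of 2101 and 2181 CPM, with FN1 at 61.1 and 26.7 CPM. The part of macrophages in the FN1 level was not tested.

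**Figure D2:**
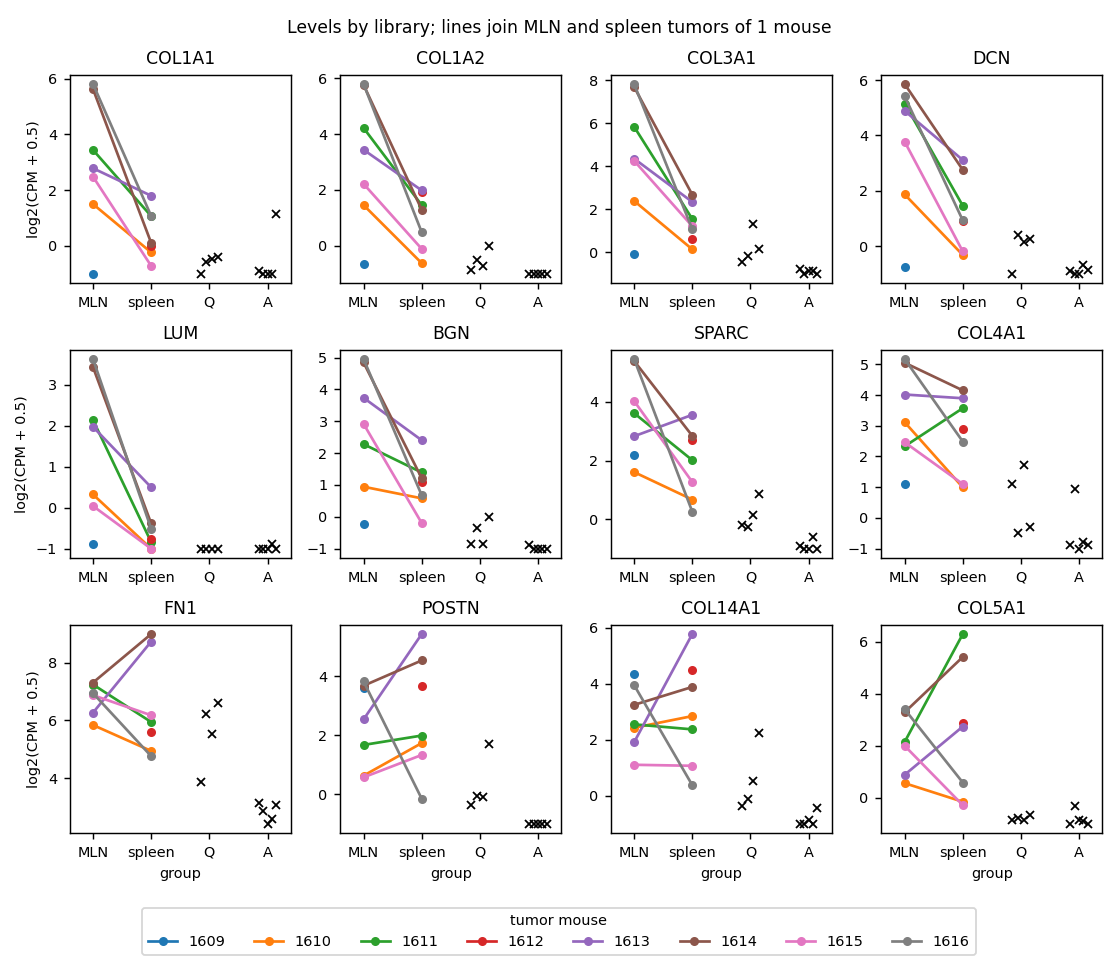
Level of 12 genes as log2(CPM + 0.5) in MLN and spleen tumors, with lines joining the tumors of 1 mouse, and in quiescent (Q) and activated (A) B cells (crosses). Lines fall from left to right in all 6 pairs for COL1A1, COL1A2, COL3A1, DCN, LUM and BGN, and in mixed directions for COL4A1, FN1, POSTN, COL14A1 and COL5A1.

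The matrix enzymes were both higher in the MLN tumor in 6 of 6 pairs. LOX, the oxidase that cross-links collagen and elastin, was highest in the MLN tumor of mouse 1611 at 22.4 CPM and had a median of 2.71 and a minimum of 0.225 CPM in MLN tumors, against 0.0498 to 2.17 CPM in spleen tumors. C1S, a complement protease made by fibroblasts among others, ranged from 0.131 to 13.9 CPM in MLN tumors and from 0.0995 to 1.21 CPM in spleen tumors. The deposited table holds 2 entries named C1S, of which the one with the higher mean was used, so its mouse gene is uncertain. Surface proteins of stromal cells were more varied. PDPN, the marker of fibroblastic reticular cells and lymphatic vessels, had 23.4 CPM in the MLN tumor of mouse 1611, 0 to 3.54 CPM in the other MLN tumors and at most 0.182 CPM in spleen tumors. PDGFRA, a receptor of mesenchymal cells, ranged from 0.15 to 4.1 CPM in MLN tumors and from 0 to 1.27 CPM in spleen tumors. PDGFRB, the pericyte receptor of the same family, ranged from 0.825 to 5.18 CPM in MLN tumors and from 0.0999 to 3.13 CPM in spleen tumors, with 3 of 6 pairs higher in the MLN tumor. THY1, a surface protein of fibroblasts and, in mice, of T cells, had 81.9 CPM in the MLN tumor of mouse 1610 and 1.74 to 15.8 CPM in all other tumors. The summed level of 9 T cell markers, all above 0 somewhere, was 581.3 CPM in that tumor, 16.9 to 112.1 CPM in the other MLN tumors, 31.6 to 105.9 CPM in spleen tumors, 75.9 to 83.7 CPM in quiescent and 48.7 to 57.9 CPM in activated cells, and its part in the THY1 level was not tested.

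Over all 12322 genes, no gene passed an adjusted p of 0.05 between MLN and spleen tumors in edgeR (0%), and so no matrix gene did. At an unadjusted p under 0.05 there were 602 genes (4.89%), 255 of them higher in MLN tumors (2.07%) and 347 lower (2.82%). Of the 42 matrix genes, 23 were among those higher and 0 among those lower. The median fitted log2 change was 1.99 over the 42 genes and -0.03 over all genes tested. DESeq2, run as an alternative, called 22 genes higher in MLN tumors (0.179%) and 6 lower (0.0487%), and 11 of the 22 were matrix genes (COL1A1, COL1A2, COL3A1, COL6A2, LUM, FBN1, CLEC3B, SMOC1, C1S, LOX and PDPN). Of these, LUM, FBN1, CLEC3B, SMOC1, C1S, LOX and PDPN were named singly in the rule. The matrix genes were chosen with earlier results of these data known, so their counts are descriptions and no test of the set. For COL3A1 the DESeq2 log2 change was 4.91 ± 0.88 (SE, DESeq2 adjusted p = 3.46e-04), and over all alternatives the adjusted p of COL3A1 ran from 3.46e-04 to 0.9999. The 7 MLN and 7 spleen tumors overlapped for each of the 42 genes (of all genes 0.0162% did not overlap in either direction taken singly). By pairs, 21 of the 42 were higher in the MLN tumor in 6 of 6 mice, against 171 of all genes (1.39%), and 0 were lower in 6 of 6, against 168 of all genes (1.36%). In at least 5 of 6 mice, 28 were higher (8.83% of all genes) and 1, POSTN, was lower (9.2%). For COL4A2, COL5A2 and PDGFRA the difference in mouse 1610 rounded to 0 on the log2 scale. COL8A1, COL6A2 and PDPN reached 0.5 CPM only in MLN tumors, so they passed the filter through that group and had to differ. LUM, CLEC3B, COL6A3, COL12A1, COL16A1 and COL28A1 reached it in few libraries outside that group. COL6A3 and COL12A1 reached it in no spleen tumor (at most 0.236 and 0.243 CPM). COL6A2, PDPN, LUM and CLEC3B were among the DESeq2 calls. The counts of this paragraph therefore describe the genes that passed the filter.

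With mouse as a block over the 6 pairs, edgeR again called 0 genes, and 24 of the 42 were higher at an unadjusted p under 0.05 against 189 of all genes (1.53%). Without the spleen tumors of mice 1610, 1612 and 1615, which lay near B cells, 17 of 42 were higher (2.73% of all genes) and 1 lower (6.58%) at that level, again with 0 genes passing adjustment, and the log2 change of COL3A1 was 4.35 ± 1.45 (SE). Leaving out each mouse in turn gave 21 to 23 of 42 higher, against 1.61% to 2.63% of all genes. The range for COL3A1 was 4.22 to 5.21, lowest without mouse 1616.

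**Figure D3:**
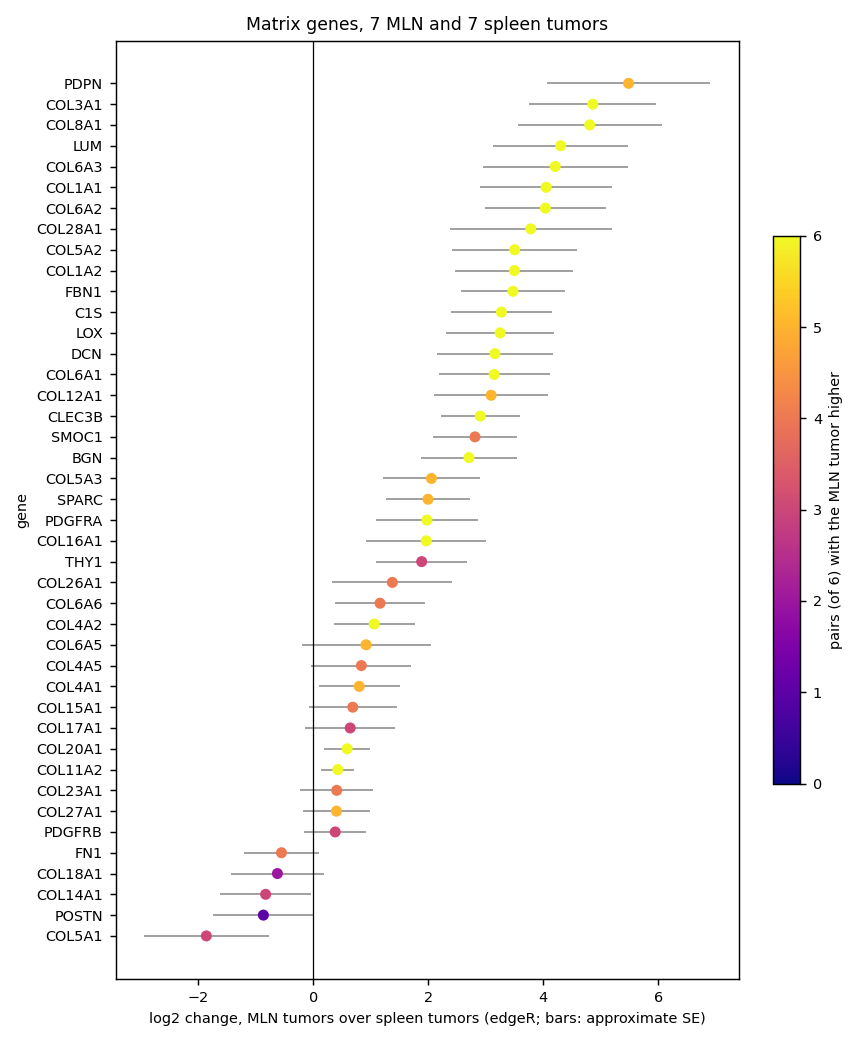
Fitted log2 change of MLN over spleen tumors for the 42 genes (points, edgeR, with approximate SE as bars), coloured by the number of the 6 pairs in which the MLN tumor was higher. The points run from -1.86 for COL5A1 to 5.48 for PDPN, with 37 of 42 above 0 (43.5% of all genes), and no gene passed adjustment over all genes.

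By the share of counts, the 42 genes together were highest in the MLN tumor of mouse 1614 (0.0929%), followed by the spleen tumors of mice 1614 (0.0796%) and 1613 (0.0702%), where FN1 was high, and the MLN tumor of mouse 1616 (0.0672%). Gene by gene the order was another one. Among the 14 tumors, the MLN tumor of mouse 1616 was highest for 15 of the 42 genes, against 8.37% of all genes tested, and that of mouse 1614 for 10, against 2.2%. The MLN tumors of mice 1611 and 1613 were highest for 4 each (5.97% and 5.9% of all genes). The MLN tumors of mice 1610 and 1615 and the spleen tumors of mice 1613 and 1614 were highest for 2 each (7.33%, 6.18%, 5.04% and 6.79%), and the spleen tumor of mouse 1611 for 1 (9.04%). The MLN tumor of mouse 1609 (1.66%) and the spleen tumors of mice 1610 (9.71%), 1612 (2.48%), 1615 (12%) and 1616 (17.4%) were highest for 0. By median rank over the genes (1 is the highest of 14), the MLN tumors of mice 1614 and 1616 had 2, the spleen tumors of mice 1610, 1615 and 1616 had 12.2, 12 and 12, and the MLN tumor of mouse 1609 had 10.5. The tumors of mouse 1616 thus stood near opposite ends, although its MLN and spleen tumors had the highest plasma cell marker sums of all, 26780 and 22710 CPM.

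Across the 14 tumors, many matrix genes kept the order of COL3A1. On the log2(CPM + 0.5) scale, 19 of the 41 other matrix genes correlated with COL3A1 at Pearson's r of 0.8 or more, and 55 of 12280 other genes tested did (0.448%). The highest were FBN1 (r = 0.97), COL5A2 (0.97), C1S (0.96), COL6A2 (0.96), COL1A1 (0.96), COL1A2, LUM and COL6A1 (0.95 each). These are descriptions over 14 libraries that share mice and differ in cell make-up, and genes near 0 in the same libraries correlate through them. Outside the matrix genes, those at 5 CPM or more on average with the highest r were SERPINA3 (0.91), CXCL12 (0.88), DAB2 (0.85), C6orf120 (0.82), STAB1 (0.8), HAL (0.76), C1R (0.73), GPX3 (0.71), ITM2A (0.68) and TULP4 (0.66). CXCL12, the chemokine that retains plasma cells and B cells near stroma, had a median of 8.77 CPM in MLN and 0.996 CPM in spleen tumors.

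A smaller group kept another order. COL14A1 correlated with POSTN at r = 0.91 and with COL3A1 at 0.02, and FN1 and COL15A1 correlated with POSTN at 0.71 each. FN1, POSTN, COL14A1, COL5A1 and COL18A1 were the 5 genes whose fitted change was below 0 in MLN tumors, and each had its highest value in a spleen tumor of mouse 1611, 1613 or 1614. For FN1 the sign turned with mouse as a block (0.23 ± 0.68, SE). Neighbours on a chromosome mostly kept together, but so did some genes on different chromosomes, such as COL3A1 and FBN1 on chromosome 2 (r = 0.97). COL3A1 and COL5A2 on chromosome 1 correlated at 0.97 and COL6A1 and COL6A2 on chromosome 10 at 0.94, whereas COL6A5 and COL6A6 on chromosome 9 correlated at 0.16.

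**Figure D4:**
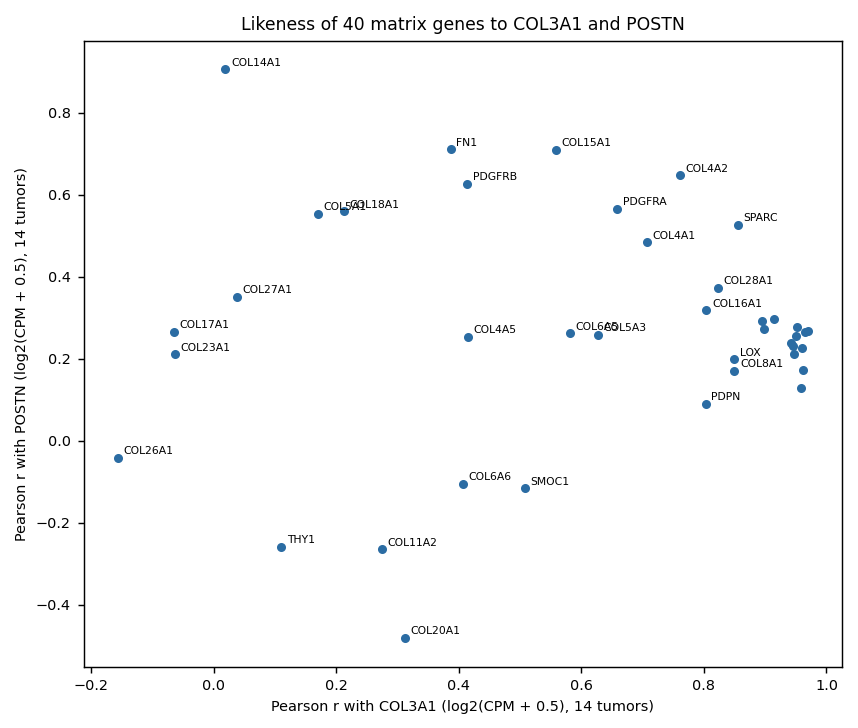
Pearson's r with COL3A1 (horizontal axis) and with POSTN (vertical axis) over the 14 tumors for the other 40 genes, names omitted where r with COL3A1 is 0.87 or more. COL1A1, COL1A2, COL5A2, COL6A1, COL6A2 and COL6A3 lie at the right edge with r with POSTN of 0.13 to 0.28, and COL14A1 stands alone at the top left.

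Per kilobase of the longest annotated transcript, the order of levels differed between the tissues. In MLN tumors the median was highest for DCN (16.6 CPM per kilobase), FN1 (14.5), COL11A2 (8.37), SPARC (5.11) and THY1 (4.87), with COL3A1 at 3.57. In spleen tumors it was highest for COL11A2 (7.79), FN1 (7.35) and COL20A1 (3), with DCN at 0.796 and COL3A1 at 0.325. Neighbours in these orders differ by less than the spread between the tumors.

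Against quiescent B cells, 33 of the 42 matrix genes were higher in tumor mice (MLN and spleen counts of a mouse summed, 8 mice against 4 libraries) and 3 were lower in edgeR at an adjusted p of 0.05. Over all genes 37.3% were higher and 30.3% lower. Of the 42, 32 reached 0.5 CPM in under 4 control libraries and so passed the filter only with the help of tumor libraries, which bears on how many were called higher. COL3A1 had 0.218, 0.371, 1.96 and 0.623 CPM in the 4 quiescent libraries and 36 ± 51.1 CPM (SD, n = 8) in tumor mice, and it rose by 5.46 ± 1.47 (SE) on the log2 scale (edgeR adjusted p = 0.00402). The lowest tumor mice lay within the quiescent range. DCN rose by 4.55 ± 1.25, BGN by 4.76 ± 1.08 and SPARC by 3.99 ± 0.81. POSTN and COL14A1, which did not share the COL3A1 pattern among tumors, rose as well, by 3.36 ± 0.94 and 3.13 ± 0.91. LUM had 518 counts in tumor mice and 0 in quiescent libraries. The 3 that fell were COL27A1 (by 2.22 ± 0.42), COL23A1 (by 1.66 ± 0.48) and COL4A5 (by 1.54 ± 0.62). For FN1, COL4A2, COL5A3, COL6A3, COL20A1 and COL26A1 no change passed the test. FN1, with 14.1, 74.4, 45.6 and 96.4 CPM in quiescent libraries, had a log2 change of 1.23 ± 0.56. The tumor mice and quiescent libraries did not overlap for 8 genes that were higher (COL5A1, COL11A2, COL15A1, LUM, SPARC, SMOC1, PDGFRB and THY1; 23% of all genes) and 1 that was lower (COL27A1; 23%).

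The tissues contributed unequally to these counts. With the MLN tumors alone 35 of the 42 were called higher (36% of all genes), and with the spleen tumors alone 15 (30.9% of all genes), a share near that of all genes. The log2 change of COL3A1 was 6.58 in the first case and 1.65 in the second (edgeR adjusted p = 0.0732), and that of COL5A1 6.04 and 7.79. As all controls were splenic, organ and malignancy cannot be told apart for the MLN tumors. Without quiescent library 3, 27 of the 42 were higher (34.1% of all genes) and 1 lower (27.9%), and without quiescent library 2, 25 were higher (34%). Exocrine pancreas markers, 7 of 7 above 0, were present in some of these libraries. Their summed level was 0.382, 209.9, 98.2 and 26.4 CPM in the quiescent libraries, 0.307 to 80.8 CPM in MLN tumors, 1.65 to 29.4 CPM in spleen tumors and 0 to 0.386 CPM in activated cells. In the MLN tumors of mice 1614 and 1616, which were highest in COL3A1, it was 78.8 and 0.966 CPM.

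Against activated B cells, which share the tumor mice with the comparison above, 35 of 42 genes were higher and 1 lower, where 37.1% and 26.3% of all genes were. The groups did not overlap for 20 genes that were higher (22.2% of all genes). As above, 32 of the 42 passed the filter only with the help of tumor libraries, which bears on both counts. Several matrix genes were near 0 in activated cells. COL3A1 had 4 counts over 5 libraries, COL1A2 and POSTN 0, SPARC 5 and DCN 5, while COL1A1 had 36 counts, with 1.69 CPM in library 5 and at most 0.039 CPM in the others. COL3A1 was higher in tumor mice by 9.84 ± 1.83 (SE), FN1 by 4.4 ± 0.62 and SPARC by 7.82 ± 0.96 on the log2 scale. COL11A2 (9.75 to 16.9 CPM), COL20A1 (6.56 to 9.41 CPM), FN1 (4.87 to 8.34 CPM), THY1 and PDGFRB were present in all 5 activated libraries. PDGFRB was the 1 gene that fell, by 0.73 ± 0.23, from 4.46 ± 1.2 (SD, n = 5) CPM in activated cells to 2.68 ± 0.73 (SD, n = 8) in tumor mice. This call was lost with the MLN tumors alone (edgeR adjusted p = 0.168), with the spleen tumors alone (0.0633) and with the 14 tumors as independent libraries (0.102). THY1, at 8.77 to 10.9 CPM in activated cells, did not pass the test in either direction.

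Between the control groups, 4 of 42 genes were higher in activated than in quiescent cells and 13 lower, against 24.6% and 32.8% of all genes. THY1 rose by 3.67 ± 0.81 (SE), PDGFRB by 1.8 ± 0.3, COL15A1 by 2.47 ± 0.63 and COL6A6 by 2.15 ± 0.71 on the log2 scale. Among those that fell were COL27A1 (by 4.24 ± 0.53), FN1 (by 3.16 ± 0.62), SPARC (by 3.82 ± 1) and COL11A2 (by 0.92 ± 0.23). FN1 went from 59.8 ± 37.1 CPM (SD, n = 4) to 6.65 ± 1.48 (SD, n = 5). POSTN had 68 counts in quiescent libraries, most in library 4 (2.74 CPM), and 0 in activated ones.

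The enzymes and chaperones that make collagen were described from a list of 29 genes, of which 26 were tested. Against quiescent cells 19 rose and 0 fell (37.3% and 30.3% of all genes). Against activated cells 22 rose and 1 fell (37.1% and 26.3% of all genes). Many of the listed genes, however, also serve secretion in general, such as P4HB, a disulfide isomerase and subunit of prolyl hydroxylase. P4HB had a median of 1116 CPM in MLN and 637 CPM in spleen tumors and 225 CPM in quiescent cells. P4HA2, a catalytic subunit of that hydroxylase, had medians of 11, 2.17 and 0.0891 CPM, and BMP1, which removes the carboxy-terminal propeptide, 34.6, 9.52 and 0.626 CPM. Between MLN and spleen tumors 0 of 26 passed the test, as 0 of all 12322 genes did, and the median log2 change of the 26 was 0.28. LOXL1, a cross-linking enzyme, and ADAMTS2, which removes the amino-terminal propeptide of fibrillar collagens, were higher in 6 of 6 pairs, with medians of 1.2 and 1.84 CPM in MLN and 0.249 and 0.2 CPM in spleen tumors. SERPINH1, the collagen-specific chaperone, had 2.38 and 2.52 CPM.

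Other matrix and matrix-related genes were divided too between those uneven and those even across the tissues. Their counts are to be read against the 37.3% of all genes that rose and 30.3% that fell against quiescent cells, and the 37.1% that rose against activated cells. Between the tissues 0 of all 12322 genes passed the test, so a 0 for a list does not set that list apart. Of 26 further matrix genes 15 were tested, 13 rose against quiescent and 14 against activated cells, and 0 passed between the tissues, with a median log2 change of 1.7. FBLN2, a fibulin of microfibrils, had a median of 5.82 CPM in MLN and 0.354 CPM in spleen tumors, and VCAN, a large proteoglycan, 11.8 and 12.6 CPM. Of 25 proteases and inhibitors that turn matrix over, 19 were tested, 16 rose and 1 fell against quiescent cells, and MMP3 had a median of 2.24 CPM in MLN and 0.0905 CPM in spleen tumors. Between the tissues 0 of the 19 passed, with a median log2 change of 0.57. The sum of that list had a median of 961.6 CPM in MLN and 1086 CPM in spleen tumors. Of 10 collagen receptors 7 were tested and 5 rose against quiescent cells. Between the tissues 0 of the 7 passed, with a median log2 change of 0.01, and their sum was higher in the MLN tumor in 1 of 6 pairs. DDR2, a receptor for fibrillar collagen, had 1.45 CPM in MLN and 0.0606 CPM in spleen tumors, and DDR1 7.89 and 8.67 CPM. Of 22 genes of transforming growth factor beta and platelet-derived growth factor signaling, which drive matrix production in fibroblasts, 18 were tested, and 8 rose and 6 fell against quiescent cells, shares near those of all genes. Their median log2 change between the tissues was 0.01. Of 15 laminins, nidogens and other basement membrane proteins 11 were tested and 7 rose against quiescent cells, with a median log2 change of 0.15 between the tissues.

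Markers of contractile cells were present in both tumor groups at similar summed levels. Smooth muscle and pericyte markers, 11 of 11 above 0, summed to 4.66 to 15.9 CPM in MLN and 3.38 to 15.6 CPM in spleen tumors, with CNN1 at a median of 0 in each group and MCAM the highest of them (4.27 CPM in MLN tumors). Quiescent cells had 1.58 to 2.49 CPM and activated cells 0.482 to 1.54 CPM. Of the reticular fibroblast markers other than the matrix genes, 18 of 18 were above 0 and 10 were tested. CCL19 had a median of 0.0743 CPM in MLN and 0 in spleen tumors, CCL21 1.34 and 0 CPM, and IL33 1.12 and 0.177 CPM. Over the 10 tested, however, the median log2 change between the tissues was 0.04. Of the 10, 0 passed the test, as 0 of all 12322 genes did. The list's sum was higher in the MLN tumor in 2 of 6 pairs. The summed level of the whole list was 85.5 to 505.8 CPM in MLN and 44.5 to 1601 CPM in spleen tumors, 192.8 to 230 CPM in quiescent and 61.6 to 80.5 CPM in activated cells, a sum to which VCAM1 (95 and 326.2 CPM) and GSN (76.1 and 81.9 CPM) contributed most in both tumor groups. The part of any of these cells in the matrix levels was not tested.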

How the data were processed

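Stranded total RNA libraries were sequenced. Reads were trimmed with Trim Galore 0.4.0, and DESeq2 and GRCm39 were also named, per the submitters' processing notes. Which quantifier was run is not given in the sources used. The deposited table holds estimated counts that are not whole, although its name speaks of TPM. Its 17047 entries above 0 were merged into 15881 profiles where values were identical. The values were rounded and tested with edgeR 4.0.16 (quasi-likelihood, TMM) in R 4.3.3 on genes at 0.5 CPM in at least 4 libraries, with Benjamini-Hochberg adjustment at 0.05. DESeq2 1.42.0 was an alternative. SEs are the size of the log2 change over the root of F, and SDs and means of tumor mice and controls are in the scaling of that fit. Printed CPM are TMM-scaled over 23 libraries. The mouse was the replicate against controls, with the tumors of 1 mouse summed. The pairing of tumors comes from the series' design text. Both tumors of a mouse deviated from the mean of their site with correlations of -0.11, -0.31, 0.36, -0.18, -0.43 and 0.61 for mice 1610, 1611 and 1613 to 1616. Transcript lengths are those of GENCODE vM21, and 41 of 42 genes matched a RefSeq symbol. The fits were tested on simulated data. The genes, the lists and the rule for named genes (the matrix genes, the first 2 and up to 4 lowest adjusted p of each other list, and the 10 genes most like COL3A1) were chosen with earlier results of these data known. P4HB, SERPINH1, LOXL1, ADAMTS2, FBLN2, DDR2, IL33 and CNN1 were named after their values were seen.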

Additional observations from a re-analysis of the deposited data

Results flagged for a closer look

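PDGFRB in the spleen tumor of mouse 1616 had 0.0999 CPM, while the other 6 spleen tumors had 2 to 3.13 CPM. The gap to the nearest of them was 0.793 of the range of the 7 spleen tumors on the log2 scale. Of 34 groups tested (a main matrix gene in 1 sample group with a mean of at least 1 CPM), this was the 1 with a sample set so far apart, and chance gives about 1 in 20 groups.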

How the results depend on the processing

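DESeq2 called 22 genes higher and 6 lower in MLN than in spleen tumors, 11 of them matrix genes, where edgeR called 0; the cause was not tested. With the mouse as a block over 6 pairs the FN1 change was 0.23, reversed from the unblocked fit. Against quiescent cells, the spleen tumors alone gave 15 matrix genes higher (30.9% of all genes). Leaving out 1 replicate each gave 25 to 34 matrix genes higher and 1 to 4 lower, and COL6A3 changed by -2.68 with the spleen tumors alone and by -0.76 (without mouse 1616) to 3.38 (without quiescent library 3) when 1 replicate was left out. Against activated cells, 0 matrix genes were lower with the 14 tumor libraries as independent, with the MLN tumors alone or with the spleen tumors alone, and 1 to 2 when 1 replicate was left out (2 without mouse 1611). THY1 changed by -1.06 with the spleen tumors alone, -0.71 without mouse 1610, -0.02 without mouse 1614, -0.0034 without activated library 4 and at most 0.16 without any other replicate. Between the control groups COL1A1 changed by -3.14 with the label numbers as a replicate block and by -3.46 (without activated library 5) to 1.35 when 1 replicate was left out. Those numbers do not pair the control libraries (correlations of -0.02 to 0.04). At an edgeR unadjusted p under 0.05 the block gave 5 matrix genes higher (35.2% of all genes) and 17 lower (36.1%). Of the other values of single genes, 1177 kept their direction and their side of the threshold, 22 moved past it and 36 fell short of it. Most matrix genes had under 10 CPM, so counting error limits their values in controls.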
